A study of Mus musculus with 36 samples.

Results

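Lung monocytes carrying CD45.2, the host form of the leukocyte antigen CD45, were compared between mice that had breathed concentrated fine particulate matter (PM2.5) and mice that had breathed filtered air (FA) for 4-weeks. The genes described were chosen by level alone, as those whose FPKM averaged 1 or more in the 6 libraries compared, and were 12304 of the 27562 genes listed. FPKM are fragments per kilobase of transcript scaled to the size of the library. Their sum differed between libraries, and how many reads each value rests on is not known. Just inside this level were Gpam at a mean of 1.001 FPKM, Rnls at 1.002 and Ankrd66 at 1.002, and just outside it were Slc41a2 at 0.999, Tufm at 0.999 and Gm42759 at 0.9996.

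The study exposed bone marrow chimeric mice to FA or PM2.5 and sequenced RNA of sorted lung macrophages and monocytes, in 36 libraries. The hosts of both groups were male C57BL/6J (CD45.2) mice, 7 to 8 weeks old at irradiation, whose chests were shielded while the rest of the body received a lethal dose. They were then given busulfan and marrow of CD45.1 donors (B6.SJL-Ptprca Pepcb/BoyJ) of the same age and sex. The exposures took place in chambers supplied with concentrated ambient particles or with filtered air. The FA group and the PM2.5 group of 4-weeks each held 3 libraries, numbered 0, 1 and 2, from 3 mice a group. Monocytes were sorted as Ly6G-, MHC II-, CD64 low and CD11b high cells, and at this time point only cells of host origin were sequenced. As a model these are monocytes of host origin from lungs of mice whose blood monocytes were mostly of donor origin. They are not the monocytes arriving from donor marrow. Whether they were in the lung before the transplant or came later was not tested.

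Monocytes are made in the bone marrow and reach the lung through the blood. In mice, classical monocytes carry much Ly6C on their surface, leave the marrow through the chemokine receptor CCR2 and enter tissue in inflammation, where they can become macrophages or dendritic cells. Non-classical monocytes carry little Ly6C and much CX3CR1, depend on the transcription factor NR4A1 and patrol the walls of blood vessels.

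The libraries carried the genes of monocytes, but replicate 2 of both exposures stood apart from the others. All 14 genes of a monocyte identity list passed the level, and their summed FPKM lay between 12500 and 13500 in FA and between 11900 and 14400 in PM2.5 libraries. Of the genes of the sort gate, Itgam (CD11b) lay between 89.42 and 120.6 FPKM, and Ly6g was listed at 0 in every library but PM2.5 replicate 2, where it had 2.473 FPKM. H2-Aa, a chain of MHC class II, was nevertheless present at 1092, 637.7 and 185.8 FPKM in FA replicates 0, 1 and 2, and at 745, 574.8 and 62.63 in PM2.5 replicates 0, 1 and 2. Its lowest value in each exposure was that of replicate 2, and the exposures overlapped. The 14 neutrophil markers, 8 of which passed the level, summed to 93.2, 76.5 and 433 FPKM in FA and to 84.2, 97.6 and 1220 in PM2.5 replicates 0, 1 and 2. S100a9, an abundant neutrophil protein, had 3.033, 1.403 and 247.8 FPKM in FA and 0.412, 0.445 and 791.8 in PM2.5 libraries, so it was high in replicate 2 of each exposure. The 10 NK cell markers were likewise highest in replicate 2 of each exposure, with sums of 44.5, 41.2 and 209 FPKM in FA and 28.1, 21.1 and 272 in PM2.5. The macrophage gene C1qa was lowest in these replicates, with 0.78 FPKM in FA and 1 in PM2.5 against 55.41 to 167.4 in the other 4 libraries. RNA of small genes made up 77.9% to 82.9% of the FPKM of a library and protein-coding genes 8.98% to 14.9%.

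**Figure D1:**
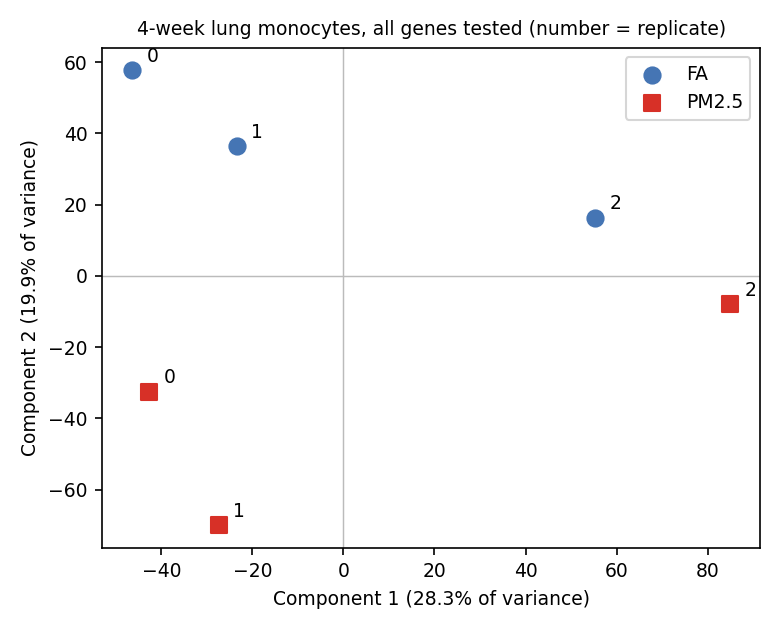
Principal components of log2(FPKM + 1) of the 12304 genes, with component 1 (28.3% of the variance) on the horizontal and component 2 (19.9%) on the vertical axis, and 1 point per library labelled with its replicate number. Replicate 2 of FA (55.2) and of PM2.5 (84.9) lie apart from the other libraries on component 1, and on component 2 the FA libraries lie between 16.4 and 57.7 and the PM2.5 libraries between -70 and -8.

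On principal components of the 6 libraries, component 1 separated replicate 2 of each exposure from replicates 0 and 1. Component 2 separated the exposures. Because replicate 2 stood apart, the called genes, the subset lists and some other results are also given without PM2.5 replicate 2 or both of these libraries. Most other single genes are given with the FPKM of each library and a fold change over all 6.

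No protein-coding gene passed the threshold between PM2.5 and FA. The genes that passed were 11 small RNA genes and pseudogenes, 7 of them higher and 4 of them lower in PM2.5 exposed mice, and each was listed at 0 in all 3 libraries of one exposure. They were 0.0894% of the genes tested (0.0569% higher and 0.0325% lower) with limma on log2(FPKM + 1), a model fitted across all genes, at an adjusted p under 0.05. In total 299 of the tested genes were at 0 in all libraries of an exposure, 166 of them in FA and 133 in PM2.5. When these were left out, 0 genes passed in limma and 341 were under 0.05 at an unadjusted p. Over all genes tested, 345 were under 0.05 before adjustment (2.80%, 184 higher and 161 lower), where 5% of the genes would be 615.

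Of the called genes 4 are annotated as snRNA, the class of small nuclear RNAs that includes those of the spliceosome, and 3 of these, Gm25127, Gm22421 and Gm24142, have many near-identical copies among the listed genes. Gm24697 had no listed copy at 90% identity over 90% of its length. Gm24148, a snoRNA gene, is shown by sequence because a second gene is annotated at the same place with the same bases. Its coordinates are of mm10 with GENCODE M21, and no bases are in capitals because none differ.
Gm24148, chr1:86352008-86352087, - strand: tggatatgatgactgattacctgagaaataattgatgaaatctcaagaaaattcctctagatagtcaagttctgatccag

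Gm25127 had 859.4, 469.5 and 433.8 FPKM in FA and was listed at 0 in all of PM2.5 (adjusted p 0.000173 in limma). It has 201 copies among the listed genes at 90% identity or more, and the summed FPKM of Gm25127 and its copies was 44600, 42100 and 35400 in FA and 37800, 41600 and 36300 in PM2.5 libraries. The sums overlapped, and reads of such copies can be divided between them in any proportion, so the level of each single copy is uncertain. Gm22421, 95.2% identical to Gm25127, had 451.5, 1028 and 934.2 FPKM in FA and was listed at 0 in PM2.5 (adjusted p 0.000255 in limma). With its 142 listed copies it summed to 35100, 28900 and 23100 FPKM in FA and to 27000, 25800 and 24600 in PM2.5. Gm24142 lies in an intron of Nbas on the opposite strand and went the other way, listed at 0 in FA and at 297.8, 304.4 and 519.4 FPKM in PM2.5 (adjusted p 0.000155 in limma). It was 93.5% identical to Gm25127, and its 124 listed copies and itself summed to 33700, 27800 and 25400 FPKM in FA and to 26300, 23300 and 23100 in PM2.5. These 3 near-identical genes were called in opposite directions while the sums of each family overlapped between exposures.

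Gm24697, 78.1% to 80.2% identical to the other 3 snRNA genes, had 435.3, 505.3 and 441.2 FPKM in FA and was listed at 0 in PM2.5 (adjusted p 4.98e-06 in limma). Gm24148 was listed at 0 in FA and had 1818, 1745 and 1980 FPKM in PM2.5 (adjusted p 2.9e-06 in limma). The microRNA gene mmu-mir-3535, annotated at its place with 100% of its bases, had 272.4, 148.6 and 936.1 FPKM in FA and 102.4, 209.5 and 0 in PM2.5. Both overlap an annotated exon of Ncl, the gene of nucleolin, on the same strand. The sums of the pair, 272, 149 and 936 FPKM in FA and 1920, 1950 and 1980 in PM2.5, did not overlap. The other genes higher in PM2.5 and listed at 0 in FA were the snoRNA genes Gm23297, in an intron of Nap1l4, and Gm22786, in an intron of Psmd1, the 5S rRNA gene n-R5s162, the processed pseudogene Gm12941 and AC157602.1. AC157602.1 is annotated as a microRNA over an exon of the snoRNA gene Gm22519 and is 99.0% identical to Snora81, and with its copies it summed to 22100, 16900 and 14200 FPKM in FA and to 11600, 14800 and 12200 in PM2.5. With its 3 listed copies n-R5s162 summed to 5250, 3600 and 2410 FPKM in FA and to 3300, 2070 and 1980 in PM2.5, and Gm22786 with its 1 listed copy to 1080, 0 and 557 in FA and to 1600, 934 and 641 in PM2.5. Both sets of sums overlapped between exposures. The last of the 11, the processed pseudogene Gm43380 on the strand opposite to an exon of Rnf216, had 27.3, 12.8 and 9.71 FPKM in FA and was listed at 0 in PM2.5. Over the whole series Gm25127 and AC157602.1 were listed at 0 in 29 of the 36 libraries, Gm24697 and Gm24142 in 23, Gm22421 in 24 and Gm24148 in 13.

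**Figure D2:**
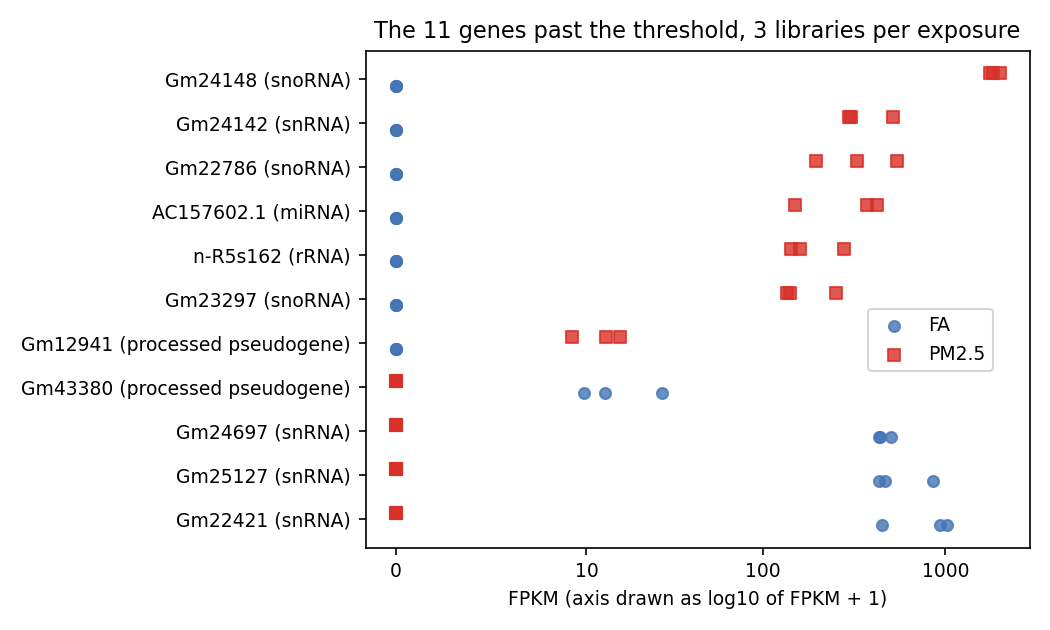
FPKM of the 11 genes that passed, on an axis drawn as log10 of FPKM + 1, with circles for the 3 FA libraries and squares for the 3 PM2.5 libraries. Each gene has 1 exposure with all 3 libraries at 0, and the highest values are those of Gm24148 in PM2.5 (1745 to 1980 FPKM).

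Among genes above 0 in every library with a mean of at least 5 FPKM, the 8 largest non-overlapping differences in each direction were taken. The higher ones held 5 protein-coding genes, Ccr1, Tarm1, Mmp19, Cd300lf and Fkbp5, and the lower ones held none. No gene of either set passed the threshold, so they are given as values. All 3 PM2.5 libraries lay above all 3 FA libraries for 440 genes (3.58% of those tested) and below for 385 (3.13%), together 6.71%.

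Cd300lf, an inhibitory immunoglobulin-like receptor of myeloid cells, had the lowest adjusted p of the genes without a whole exposure at 0. It had 8.636, 8.866 and 11.09 FPKM in FA (mean 9.53 ± 1.35 SD, n = 3) and 21.08, 24.5 and 26.48 in PM2.5 libraries (mean 24 ± 2.73 SD, n = 3). The exposures did not overlap, and the 3 values of each lay close together. The log2 fold change was 1.25 (SE 0.166, adjusted p 0.246 in limma), and its range was 1.18 to 1.35 when single libraries were left out.

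Ccr1 encodes the receptor for CCL3, CCL5 and related chemokines, which draw monocytes into tissue. It had 16.42, 26.14 and 33.94 FPKM in FA and 84.97, 145 and 61.18 in PM2.5 libraries. The lowest PM2.5 value was that of replicate 2 and was still above every FA value. The log2 fold change of 1.85 (SE 0.399) had an adjusted p of 1 in limma, and its range was 1.52 to 2.14 when single libraries were left out. Tarm1, an activating receptor of myeloid cells, had 5.14, 8.397 and 21.37 FPKM in FA and 31.25, 28.23 and 23.51 in PM2.5 (log2 fold change 1.39, SE 0.473). FA replicate 2 came close to the PM2.5 range. Fkbp5, a co-chaperone of the glucocorticoid receptor and one of its target genes, had 5.803, 5.154 and 5.851 FPKM in FA and 10.97, 24.69 and 10.7 in PM2.5 (log2 fold change 1.22, SE 0.329). Mmp19, a matrix metalloproteinase, had 7.23, 10.06 and 7.63 FPKM in FA and 21.03, 37.41 and 12.11 in PM2.5 (log2 fold change 1.27, SE 0.399). For both genes PM2.5 replicate 1 was the highest library, and the exposures did not overlap.

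By the same order of size, 2 processed pseudogenes, Gm17022 and Gm15466, and a snoRNA gene listed as Snora16a on chromosome 4 were also higher. Snora16a had 0.2959, 0.3895 and 0.2551 FPKM in FA and 2.35, 2084 and 0.7866 in PM2.5, so its difference was mostly that of 1 library (log2 fold change 4.14, and 0.90 without PM2.5 replicate 1). The 8 lower genes were the snoRNA genes Gm25617, Snord110 and Snord60, the snRNA genes Gm26328, Gm22170 and Gm26325, the 5S rRNA gene n-R5s65 and the pseudogene Gm37670. Snord110 had 33950, 15610 and 24860 FPKM in FA and 5159, 12840 and 6417 in PM2.5 (log2 fold change -1.65). Snord60 had 25940, 22050 and 19400 FPKM in FA and 5536, 14530 and 10590 in PM2.5 (log2 fold change -1.23). Both guide the methylation of ribosomal RNA as members of the C/D box class. The median log2 fold change was -0.22 over the 269 snoRNA genes tested, -0.19 over the 252 snRNA genes and 0 over the 9418 protein-coding genes, beside -0.016 over all genes tested. These medians depend on the scaling. With the FPKM of each library scaled to the same sum they were -0.03, -0.01 and 0.15, beside 0.136 over all genes, of which 74.2% were then above 0.

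**Figure D3:**
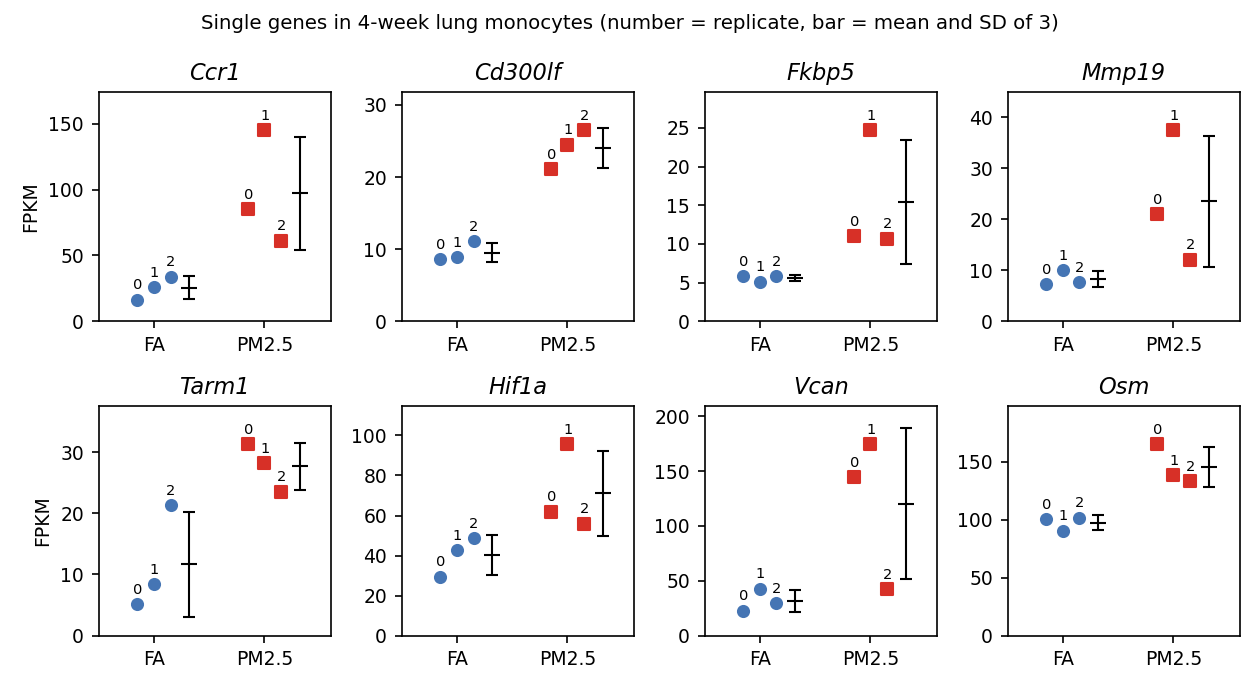
FPKM of Ccr1, Cd300lf, Fkbp5, Mmp19, Tarm1, Hif1a, Vcan and Osm in the 3 FA libraries (circles) and the 3 PM2.5 libraries (squares), labelled with the replicate number, with bars for the mean and SD of 3 libraries. The exposures overlap for Vcan alone, where PM2.5 replicate 2 (42.41) is below FA replicate 1 (42.66).

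Genes that mark classical monocytes lay higher in PM2.5 libraries, and genes that mark non-classical monocytes lay lower, with replicate 2 as the exception. Of 16 genes of the classical list all 16 had a log2 fold change above 0, beside 47.4% of all genes tested, and the median was 0.44. Of 15 genes of the non-classical list 14 were below 0 with a median of -0.40. Klf2 was above 0, and Nr4a1 at -0.01 turned positive when the FPKM of each library were scaled to the same sum (0.21), by quantile normalization (0.24) or when the protein-coding sum was scaled (0.01). None of the 31 genes passed. Both lists were chosen with earlier results of these data known, so the counts are no test of them. In bulk libraries fewer cells of a type and less RNA per cell cannot be told apart.

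Ly6c2, which encodes the defining surface protein of classical monocytes, had 218.6, 270.3 and 273.3 FPKM in FA and 419.3, 516.3 and 164.4 in PM2.5 libraries. Ccr2, the receptor by which these cells leave the marrow, had 199.6, 307.7 and 279.4 FPKM in FA and 535.1, 659.8 and 170.9 in PM2.5. F13a1, a clotting factor subunit made by classical monocytes, had 157, 199.7 and 163.6 FPKM in FA and 381.3, 431.5 and 134.3 in PM2.5. In all 3 genes PM2.5 replicates 0 and 1 were above every FA library and PM2.5 replicate 2 was below every one, so the log2 fold changes were 0.38 for Ly6c2 (SE 0.446), 0.60 for Ccr2 (SE 0.536) and 0.70 for F13a1 (SE 0.465). Vcan, the matrix proteoglycan versican, had 22.81, 42.66 and 29.46 FPKM in FA and 144.5, 174.2 and 42.41 in PM2.5 (log2 fold change 1.71, SE 0.57). The exposures did not overlap, with PM2.5 higher, in 4 of the 16 genes, Ly6c1, Chil3 and F10 among them, beside 3.58% of all genes tested. Ly6c1 was low, at 1.627, 0 and 1.499 FPKM in FA and 2.378, 2.546 and 1.795 in PM2.5. Chil3, also on the alveolar macrophage list, had 194.6 FPKM in its highest FA and 203.3 in its lowest PM2.5 library. Thbs1, the gene of thrombospondin 1, had 288.8, 308.5 and 547.1 FPKM in FA and 489.9, 792.6 and 766.7 in PM2.5 (log2 fold change 0.87, SE 0.337).

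Ear2, a ribonuclease of eosinophils that is also high in non-classical monocytes, had 298.9, 380.2 and 481.1 FPKM in FA and 148, 191.4 and 328.9 in PM2.5 (log2 fold change -0.85, SE 0.351). Eno3, an enolase, had 36.34, 31.6 and 28.16 FPKM in FA and 12.61, 13.26 and 33.66 in PM2.5 (log2 fold change -0.80, SE 0.388). Spn, the sialophorin CD43 by which non-classical monocytes are often recognised, had 264.4, 306.3 and 439.1 FPKM in FA and 157.5, 157.5 and 433.7 in PM2.5 (log2 fold change -0.57, SE 0.457). For Eno3 and Spn, PM2.5 replicates 0 and 1 were below every FA library, and replicate 2 was within the FA range. The same was true of Ear2. For Cx3cr1, the fractalkine receptor, the FPKM were 150.4, 177.5 and 257.5 in FA and 129.8, 123.7 and 199.7 in PM2.5. None of the 15 genes separated the exposures completely.

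The mean log2(FPKM + 1) of the classical list minus that of the non-classical list was -0.85, -0.72 and -0.97 in FA and 0.73, 0.82 and -1.12 in PM2.5 replicates 0, 1 and 2. Without PM2.5 replicate 2 the median of the classical list was 0.72 and that of the non-classical list -0.85, and all 15 genes of the latter were below 0. Without PM2.5 replicate 0 the medians were 0.39 and -0.16, without PM2.5 replicate 1 they were 0.26 and -0.26, and without FA replicate 2 they were 0.51 and -0.22. Without both replicate 2 libraries they were 0.84 and -0.67. The red cell markers moved with the classical list in PM2.5, with sums of 7.42, 47.8 and 0.456 FPKM in FA and 157, 129 and 0 in PM2.5, as 5 of 7 listed markers were at least 1 FPKM in PM2.5 replicates 0 and 1 and in FA replicate 1, and 0 in both replicate 2 libraries. The eosinophil markers, 2 of which passed the level, lay in the direction of the non-classical list with a median of -1.28, and the 5 listed ones summed to 13.6, 6.46 and 1.28 FPKM in FA and to 0.615, 0.857 and 2.81 in PM2.5. Of these Epx, the eosinophil peroxidase, was at 0 in all 6 libraries. The part of red cells, eosinophils and neutrophils in these differences was not tested.

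**Figure D4:**
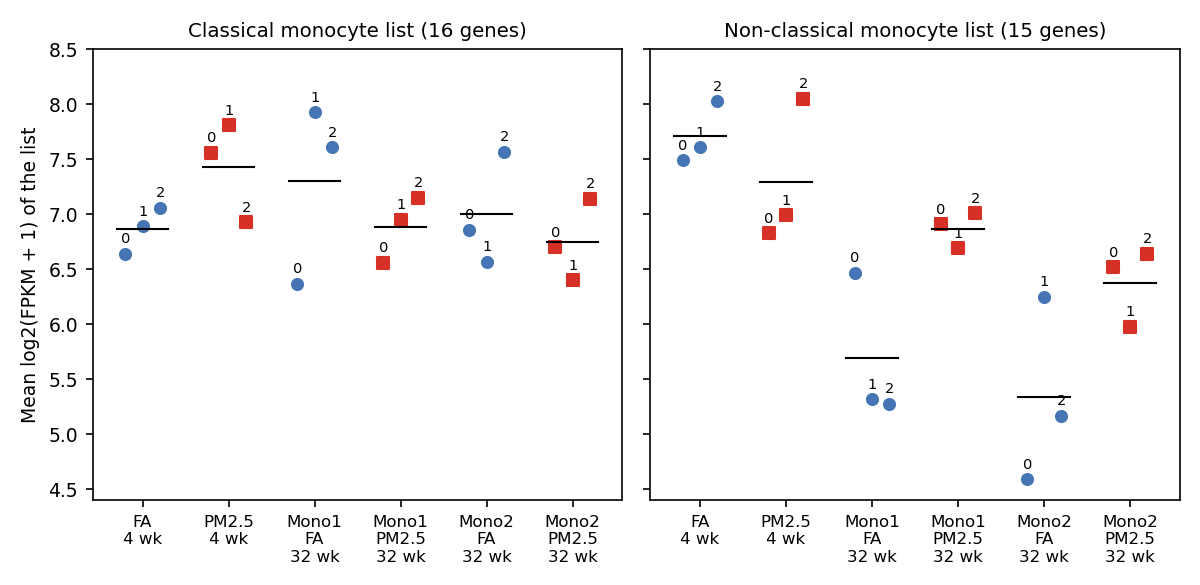
Mean log2(FPKM + 1) of the 16 classical (left) and the 15 non-classical genes (right) in each monocyte library, with circles for FA, squares for PM2.5, the replicate number above each point and a line for the mean of 3 libraries. At 4-weeks PM2.5 replicates 0 and 1 lie at 7.56 and 7.81 for the classical and at 6.83 and 6.99 for the non-classical genes, while PM2.5 replicate 2 lies at 6.93 and 8.05, near the FA libraries.

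Leaving out PM2.5 replicate 2 also brought 2 protein-coding genes past the threshold. Of the 25 genes that then passed, 22 were at 0 in all remaining libraries of an exposure. Ctse, the aspartic protease cathepsin E, had 54.4, 52.71 and 47.53 FPKM in FA and 3.913 and 6.512 in PM2.5 replicates 0 and 1, and 60.58 in replicate 2. Without replicate 2 its log2 fold change was -3.11 (adjusted p 0.0277 in limma), and with all 6 libraries it was -2.0 (SE 0.929, adjusted p 1). Fcgr1 encodes CD64, the high-affinity IgG receptor by which the cells had been gated as low. It had 13.91, 13.17 and 14.55 FPKM in FA and 45.34 and 41.04 in PM2.5 replicates 0 and 1, and 8.463 in replicate 2. Without replicate 2 its log2 fold change was 1.57 (adjusted p 0.0454 in limma), and with all libraries 0.83 (SE 0.618, adjusted p 1). Without both replicate 2 libraries 35 genes passed and all 35 were at 0 in the remaining libraries of an exposure.

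Lists of pathway genes that particulate matter, inflammation or cell stress could engage showed no gene that passed. The 40 lists held 536 distinct genes that were tested, of which 256 (47.8%) had a log2 fold change above 0, close to the 47.4% of all genes. Of these 23 were higher at an unadjusted p under 0.05 (4.29%, beside 1.50% of all genes) and 3 were lower (0.56%, beside 1.31%). The exposures did not overlap for 34 that were higher (6.34%, beside 3.58%) and 7 that were lower (1.31%, beside 3.13%). The lists were chosen with earlier results of these data known, so these shares are no test of them. List medians ran from -0.30 for CXC chemokines to 0.23 for the Ifitm and Ly6 families. With the FPKM of each library scaled to the same sum, 17 of the 20 list medians that were below 0 turned above it (0.02 to 0.19), as did that of all genes, and those of CXC chemokines, NF-kappa B and MHC class II stayed below. The sum of a library was mostly that of small RNA genes (77.9% to 82.9%). Under this scaling 79.7% of the protein-coding genes tested were above 0. In 24 of the 39 lists with a tested gene the median changed sign when at least 1 library was left out.

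**Figure D5:**
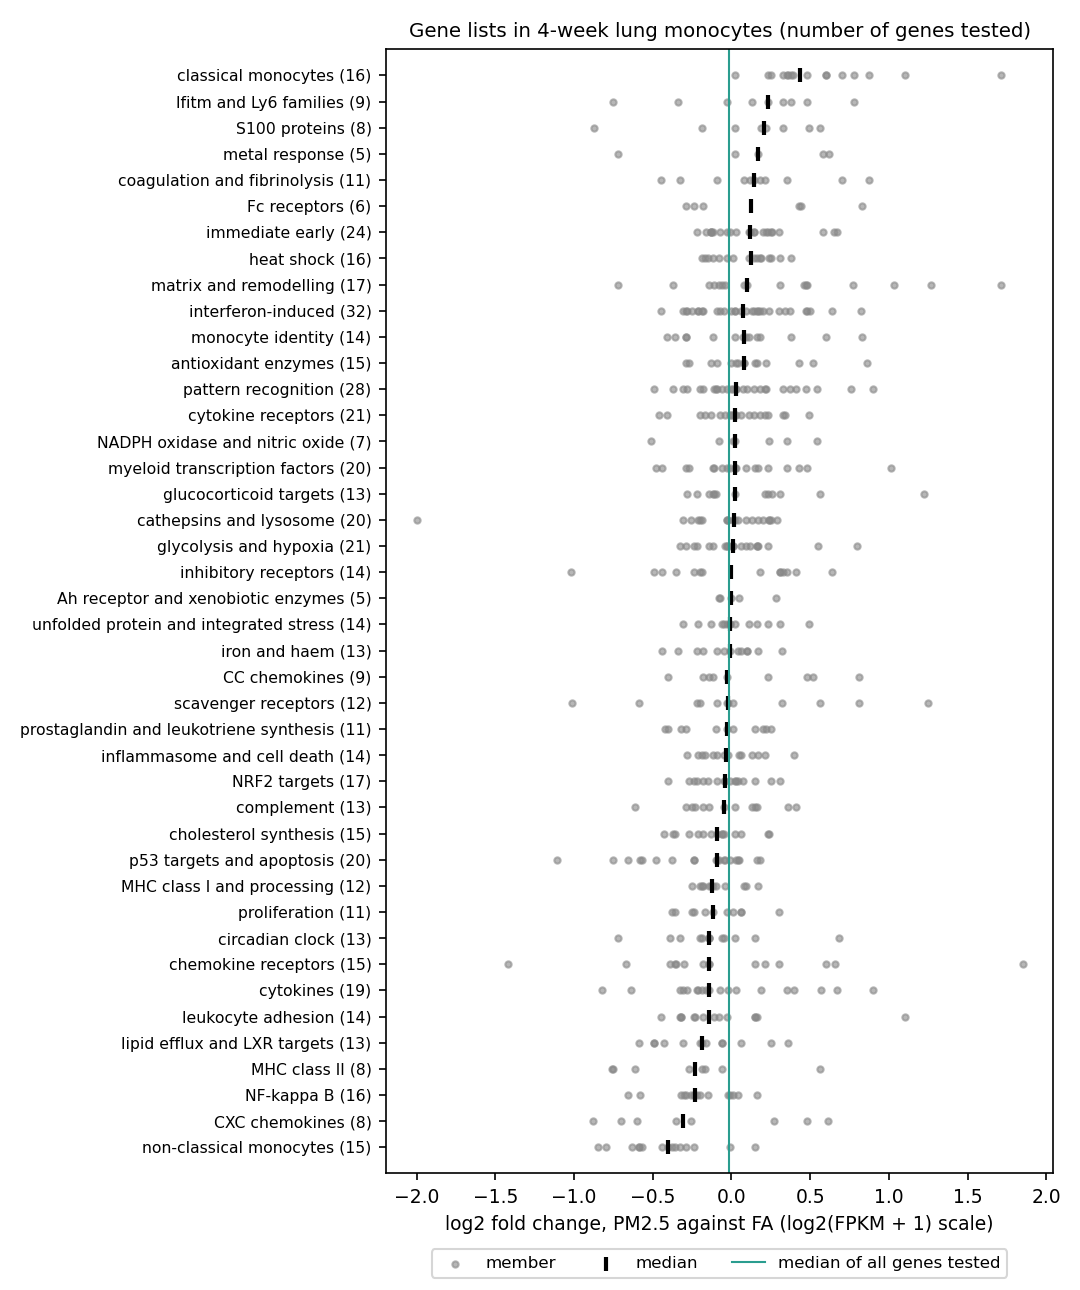
Log2 fold change of PM2.5 against FA for each tested gene (grey points) of the marker and pathway lists with at least 5 tested genes, with a black bar for the median of the list, the number tested in brackets and a line for the median of all genes (-0.016). The classical list has the highest median (0.44) and the non-classical list the lowest (-0.40), and the pathway lists lie between -0.30 and 0.23.

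None of the genes that respond to inhaled chemicals and metals passed. Cyp1a1, the main target of the aryl hydrocarbon receptor, was listed at 0 in 5 libraries and at 0.1225 FPKM in the other one, and Cyp1b1 was at 0 in all 6. Tiparp, a further target of this receptor, had 134.5, 152.9 and 113.3 FPKM in FA and 120.8, 150.6 and 127.6 in PM2.5 libraries. The median of the 5 tested genes of that list was 0.00, and that of the 5 metal response genes was 0.17. Mt1, a metal-binding metallothionein, had 45.85, 22.63 and 17.47 FPKM in FA and 53.96, 46.04 and 28 in PM2.5, which overlapped. The 17 tested targets of NRF2, the regulator of the oxidant response, had a median of -0.04, and Hmox1, haem oxygenase 1, had 159, 161.7 and 75.01 FPKM in FA and 162.7, 129.8 and 82.64 in PM2.5. Among 15 antioxidant enzymes (median 0.08), Glrx, the glutaredoxin that reduces glutathionylated proteins, had 6.786, 12 and 11.9 FPKM in FA and 16.18, 19.53 and 21.15 in PM2.5, with no overlap (log2 fold change 0.86, SE 0.249). The 16 heat shock genes had a median of 0.12 and none separated the exposures.

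Cytokines and chemokines had members on both sides of 0. Of 19 cytokine genes tested, 7 were above 0 and the median was -0.14 (-0.23 to 0.21 when single libraries were left out). Il1b, the gene of interleukin 1 beta, had 1421, 2066 and 4032 FPKM in FA and 1276, 1466 and 4251 in PM2.5, and Tnf had 237.4, 154.8 and 344.8 in FA and 191.6, 146.9 and 387.1 in PM2.5. In both genes replicate 2 was the highest library of each exposure, and the exposures overlapped. Osm, oncostatin M, a cytokine that acts on endothelium and fibroblasts, had 100.5, 90.52 and 101.8 FPKM in FA and 164.9, 138.3 and 133.2 in PM2.5, with no overlap (log2 fold change 0.57, SE 0.162). Tnfsf14, the cytokine LIGHT, had 6.893, 8.254 and 4.307 FPKM in FA and 10.52, 10.47 and 10.74 in PM2.5 (log2 fold change 0.67, SE 0.229). The 9 tested CC chemokines had a median of -0.03 and the 8 CXC chemokines -0.30, and without PM2.5 replicate 2 these were 0.50 and 0.34. Fits other than those with a single library left out included the one without both replicate 2 libraries. In these fits the medians lay between -0.18 and 0.18 for CC and between -0.4 and -0.07 for CXC chemokines. Cxcl9, an interferon gamma target, had 2.256, 1.492 and 1.892 FPKM in FA and 1.191, 0.4163 and 0.2109 in PM2.5 (log2 fold change -0.88, SE 0.321). Of 15 chemokine receptors 6 were above 0 (median -0.14).

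No gene of early signalling passed. Of 24 immediate early genes 15 were above 0 (median 0.12, and -0.09 to 0.28 when single libraries were left out), and 3 of the 24 were higher with no overlap, beside 3.58% of all genes. Egr1, a zinc finger factor, had 434.3, 246.8 and 367.4 FPKM in FA and 626.1, 553.4 and 457.9 in PM2.5 (log2 fold change 0.67, SE 0.271). Ier3 had 189.9, 181.8 and 165.5 FPKM in FA and 392.6, 239.5 and 234.5 in PM2.5 (log2 fold change 0.65, SE 0.249), and Fos, a subunit of AP-1, had 768, 543.9 and 961.4 in FA and 1222, 1047 and 1042 in PM2.5. For these 3 genes every PM2.5 library was above every FA library. Of 16 genes of the NF-kappa B pathway 3 were above 0, with a median of -0.23, and 0 separated the exposures. Nfkbia, its inhibitor, had 1635, 1237 and 1126 FPKM in FA and 1376, 1297 and 1255 in PM2.5. The 32 interferon-induced genes had a median of 0.08, and 1 of them, the antiviral enzyme gene Oas2, was higher with no overlap, at 6.038, 3.905 and 5.454 FPKM in FA and 12.23, 12.11 and 6.126 in PM2.5 (log2 fold change 0.82, SE 0.299).

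No receptor for microbes or particles passed. Of 28 pattern recognition genes 16 were above 0 (median 0.03), and 3 were higher with no overlap, as was 1 of 14 inhibitory and 1 of 12 scavenger receptors, beside 3.58% of all genes. Clec5a, a C-type lectin of myeloid cells, had 4.431, 4.899 and 7.56 FPKM in FA and 11.44, 10.47 and 8.315 in PM2.5 (log2 fold change 0.76, SE 0.228). Tlr5, the flagellin receptor, had 3.509, 4.626 and 4.342 FPKM in FA and 5.948, 5.945 and 5.557 in PM2.5 (log2 fold change 0.41, SE 0.153). Neither gene overlapped between exposures. Of 14 inhibitory receptors 7 were above 0, and Cd33, a sialic acid receptor, had 19.52, 18.97 and 17.19 FPKM in FA and 24.91, 33.38 and 30.47 in PM2.5 (log2 fold change 0.64, SE 0.163). Among 12 scavenger receptor genes Msr1, which takes up modified lipoproteins and particles, had 17.93, 20.26 and 32.52 FPKM in FA and 41.43, 52.59 and 31.09 in PM2.5. It was high in PM2.5 replicates 0 and 1, and replicate 2 was below the highest FA library.

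In the list of matrix genes 10 of 17 were above 0 (median 0.10), and Mmp8, Mmp19 and Adam8 were higher with no overlap. Mmp8, the neutrophil collagenase, had 8.382, 15.27 and 13.64 FPKM in FA and 27.37, 38.08 and 16.06 in PM2.5 (log2 fold change 1.03, SE 0.367). Its lowest PM2.5 library was replicate 2, the library with the highest sum of neutrophil markers. Adam8, a membrane protease of leukocytes, had 14.85, 10.51 and 14.22 FPKM in FA and 17.69, 20.43 and 33.45 in PM2.5 (log2 fold change 0.77, SE 0.276), with replicate 2 the highest.

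No gene of the metabolism and growth control lists passed. The exposures did not overlap for 2 of 21 genes of glycolysis and hypoxia, 1 of 13 of lipid efflux and 1 of 20 of the p53 list, beside 6.71% of all genes. Hif1a, the oxygen-regulated transcription factor, had 29.37, 42.55 and 48.81 FPKM in FA and 61.88, 95.47 and 55.89 in PM2.5 (log2 fold change 0.80, SE 0.288), and the exposures did not overlap, while the 21 genes of glycolysis and hypoxia had a median of 0.01. Of 13 genes of lipid efflux 3 were above 0 (median -0.19). Pltp, the phospholipid transfer protein and a target of the liver X receptors, had 83.46, 87.34 and 80.6 FPKM in FA and 50.74, 48.43 and 69.39 in PM2.5, all below FA (log2 fold change -0.59, SE 0.187). Among 20 p53 targets and apoptosis genes 5 were above 0 (median -0.10), and Phlda3, a p53 target that restrains AKT, had 8.36, 6.721 and 6.625 FPKM in FA and 1.468, 2.026 and 6.35 in PM2.5 (log2 fold change -1.11, SE 0.423). Replicate 2 of PM2.5 was close to the FA range in Phlda3. Of 8 MHC class II genes 1 was above 0 (median -0.23), but the median was 0.52 without PM2.5 replicate 2, 0.10 without FA replicate 0 and -0.05 without both replicate 2 libraries. Of 13 circadian clock genes 3 were above 0 (median -0.14).

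The exposure difference was set beside that of the monocytes labelled Mono2 at 32-weeks and beside that of the macrophages sorted at 4-weeks. The Mono2 were read as CD45.2 cells. The difference between the differences was tested in limma over 12 libraries each. The paper states that 3 mice of each group were sequenced, so a mouse may have given both a monocyte and a macrophage library at 4-weeks. The labels do not say which, and the fit treated the 12 libraries as independent. Against Mono2, 2 of 12304 genes passed (0.0163%), Gm25127 and AC157602.1, and against macrophages 3 passed (0.0244%), Gm22786, AC157602.1 and Cdk8. No gene of the subset or pathway lists passed either test, while 446 (3.62%) and 345 (2.80%) of the genes were under 0.05 before adjustment.

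The subset lists had medians of the opposite sign in Mono2 at 32-weeks, a difference that was not tested for the lists. Of the 15 non-classical genes all 15 had a log2 fold change above 0 in Mono2, with a median of 1.11, against a median of -0.40 at 4-weeks. Of the 16 classical genes 6 were above 0 in Mono2, with a median of -0.23, against 0.44 at 4-weeks. Of all genes 53.5% were above 0 in Mono2. The medians had the same signs in the monocytes labelled Mono1 at 32-weeks. There all 15 non-classical genes were above 0 (median 1.28) and 3 of the 16 classical genes were (median -0.18), beside 53.4% of all genes. The mean of the classical list minus that of the non-classical list was 2.28, 0.32 and 2.40 in Mono2 FA and 0.18, 0.42 and 0.50 in Mono2 PM2.5 replicates 0, 1 and 2, so FA replicate 1 lay within the PM2.5 range. Ear2 had a log2 fold change of 1.70 in Mono2 (SE 0.469) and -0.85 at 4-weeks, a difference of -2.54 that did not pass (unadjusted p 0.00185, adjusted p 1 in limma). Vcan had -1.40 in Mono2 (SE 0.758) and 1.71 at 4-weeks, a difference of 3.11 (unadjusted p 0.00998, adjusted p 1 in limma). Ccr1 had -1.02 in Mono2 (SE 0.654) and 1.85 at 4-weeks, a difference of 2.88 (unadjusted p 0.00442, adjusted p 1 in limma). In the macrophages of 4-weeks the log2 fold change of Ccr1 was 0.07 (SE 0.169) and that of Cd300lf -0.03 (SE 0.261). These differences between monocytes and macrophages, 1.79 for Ccr1 and 1.28 for Cd300lf, had an adjusted p of 1 in limma.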

How the data were processed

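RNA of sorted lung cells was extracted with a column kit and made into stranded SMART-Seq libraries. The authors trimmed the reads with TrimGalore, aligned them to mm10 with STAR guided by GENCODE (release not given in the sources used here) and computed FPKM per gene with Cufflinks, and they deposited 1 column of FPKM per library with replicates not pooled. The labels also list Cuffdiff. Low FPKM values showed no step that would give whole reads, so the depth of a library and the counting error of a value are unknown. Deposited FPKM sums of the 6 libraries lay between 2372128 and 3339020. A value of 0 can be a failed estimate and is given as listed at 0.

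The log2 of FPKM + 1 entered limma 3.58.1 (R 4.3.3), with 1 mean per group, a trended variance and Benjamini-Hochberg adjustment over the 12304 genes at a threshold of 0.05. Fold changes on this scale understate changes of low genes and, against a group at 0, depend on the pseudocount, so there the report gives none and the closing section gives only the differences between groups that passed, which are no effect sizes. Exact permutation of 3 against 3 libraries cannot go below a p of 0.1 and was not used. Libraries with the same replicate number were treated as unpaired. The interactions with Mono2 of 32-weeks and with macrophages of 4-weeks used 12 libraries each, with no term for the mouse. That Mono2 are CD45.2 cells rests on the key given for macrophages in the study's supplement.

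Of the 27562 genes 27413 matched GENCODE M21 by Ensembl identifier. Copies were found with BLASTN 2.17.0 at 90% identity or more over at least 90% of the gene. Python 3.11.15 and matplotlib 3.10.9 made the figures. The script was tested on simulated data.

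The genes compared and the 57 gene lists were chosen with earlier results of these data known. Named genes were at most 10 genes past the threshold by adjusted p, the 8 largest non-overlapping differences in each direction at a mean of at least 5 FPKM with no library at 0, list members, gate markers and genes past the threshold in an interaction. Gm43380, the last of the 11, and list members named beyond the highest and most different were chosen after their values were seen. Alternatives were a pseudocount of 0.1, other filters, 2 scalings, a replicate block, all 18 monocyte libraries in the model and leaving out each library. Leaving out genes at 0 in a whole exposure, protein-coding genes alone, scaling by their sum and leaving out both replicate 2 libraries were added after the data were seen. Flow cytometry and histology were not analysed here, and a few genes and sequences are not reported here.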

Additional observations from a re-analysis of the deposited data

Results flagged for a closer look

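The difference between PM2.5 and FA was tested against the same difference in other groups, and 5 results of 4 genes passed. Against Mono2 monocytes of 32-weeks, the effect on Gm25127 was lower, with a difference of -9.13 on the log2 scale, and Gm25127 was listed at 0 in all 6 Mono2 libraries. The effect on AC157602.1 was higher by 8.18 than in Mono2, where it was also listed at 0 in all 6 libraries. Against macrophages of 4-weeks, the effects on Gm22786 and AC157602.1 were higher by 8.36 and 8.18, and both genes were listed at 0 in all 6 of those libraries. In these 3 genes the difference between groups therefore equals the difference within the monocytes of 4-weeks, and its size is set by the pseudocount, so it is no measure of an effect. With a pseudocount of 0.1 in place of 1, the differences within these monocytes were -12.45 for Gm25127, 11.68 for Gm22786 and 11.49 for AC157602.1.

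Cdk8, a kinase of the Mediator complex, differed by 3.98 against the macrophages of 4-weeks. In the monocytes it had 12.25, 8.1 and 7.683 FPKM in FA and 13.88, 10.85 and 9.637 in PM2.5 libraries, which overlapped (log2 fold change 0.28). In macrophages of 4-weeks it had 9.452, 14.31 and 12.64 FPKM in FA and was listed at 0 in the 3 PM2.5 libraries. It was also listed at 0 in the 3 FA libraries of the macrophages labelled MF1 at 32-weeks, and these were the 6 of 36 libraries at 0.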

How the results depend on the processing

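The 11 genes that passed between PM2.5 and FA became 1 with all 18 monocyte libraries in the model, 0 without the genes at 0 in a whole exposure (341 at an unadjusted p under 0.05), 0 among protein-coding genes alone (228 at an unadjusted p under 0.05), 0 with the protein-coding sum scaled (255 at an unadjusted p under 0.05) and 35 without both replicate 2 libraries. With each library left out in turn they were 14 to 25 (20 without FA replicate 0, 18 without FA replicate 1, 22 without FA replicate 2, 24 without PM2.5 replicate 0 and 25 without PM2.5 replicate 2). They were 13 with a pseudocount of 0.1, 10 without a filter, 9 at a mean of 5 FPKM, 11 with libraries scaled to the same sum and 10 after quantile normalization. The difference against Mono2, passed by 2 genes, was passed by 4 without a filter, by 1 with all 18 monocyte libraries and by 2 to 7 with each library left out (7 without PM2.5 replicate 0 or Mono2 FA replicate 1, 6 without Mono2 FA replicate 2, 5 without replicate 2 of FA or PM2.5, 4 without FA replicate 0 or 1, PM2.5 replicate 1 or Mono2 PM2.5 replicate 0). That against macrophages, passed by 3 genes, was passed by 6 without a filter and by 3 to 6 with each library left out (6 without FA replicate 1 or 2, PM2.5 replicate 0 or 2, or macrophage FA replicate 0, and 5 without macrophage PM2.5 replicate 1). The cause was not tested.

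By the labels, replicates of different groups share only a number. In the data replicate 2 of both exposures stood apart, and not in the monocytes alone. In macrophages of 4-weeks the mean log2(FPKM + 1) of the classical list was 4.64 in FA and 4.41 in PM2.5 replicate 2, against 2.65 to 2.81 in the other libraries. What these replicates share was not tested. The deviations of same-numbered libraries correlated at 0.13, 0.07 and 0.21, and each library correlated best with its own number, as a hint from the data. With the replicate block 9 genes passed, and 2 and 3 in the differences against Mono2 and macrophages.

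Of the log2 fold changes of named genes under the alternatives, 1210 kept direction and call, 27 lost the call and 14 changed sign, to values from -0.06 to 0.24. These were Nr4a1 at 0.21 with libraries scaled to the same sum, 0.24 after quantile normalization and 0.01 with the protein-coding sum scaled, and Nr4a1 (-0.19 to 0.14), S100a4 (-0.06 to 0.13), Mgst1 (-0.02 to 0.47), Fcgr4 (-0.63 to 0.08) and Klf2 (-0.04 to 0.28) with libraries left out. Of list medians 943 moved by less than the spread and 5 by more, where the spread was the median within-group SD of the genes of a list. A move smaller than this spread does not mean that the sign was kept. The median of 24 of the 39 pathway lists changed sign when at least 1 library was left out. The unknown number of reads and 3 libraries a group limit what could be called.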

Other observations

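The genes with the highest FPKM were small RNA genes in both exposures. Gm22513, an snRNA gene, had 198900, 162200 and 103900 FPKM in FA and 137300, 138700 and 90710 in PM2.5 libraries. Rn7sk, the RNA that holds the elongation factor P-TEFb inactive, had 122600, 83900 and 78630 FPKM in FA and 86620, 72520 and 58610 in PM2.5. Mir6236 had 61300, 41040 and 44680 FPKM in FA and 53710, 42490 and 43350 in PM2.5. The exposures overlapped for each of these genes.

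Several small RNA genes were listed at high FPKM in some libraries and at 0 in others of the same exposure. Snord69 had 12870 and 5670 FPKM in FA replicates 0 and 1 and 5287 and 6752 in PM2.5 replicates 0 and 1, and was listed at 0 in replicate 2 of both. Snord78 had 2807 and 10320 FPKM in FA replicates 0 and 1 and 3618 and 4062 in PM2.5 replicates 0 and 1, and was likewise at 0 in replicate 2 of both. Mir146, the gene of a microRNA that restrains Toll-like receptor signalling, had 14050 and 6096 FPKM in FA replicates 1 and 2 and was at 0 in replicate 0, and it had 1864 and 10600 in PM2.5 replicates 0 and 2 and was at 0 in replicate 1.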
